A study of Arabidopsis thaliana with 4 samples.

Results

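The transcripts of wild-type Arabidopsis thaliana seedlings grown in darkness were described from 2 of the 4 arrays of the series, those labelled wildtype. The arrays carried 22810 probe sets, and the 22746 left after removing 64 control probe sets were ranked by signal within each array. Each rank was written as a percentile, with the brightest probe set near 100 and the dimmest near 0, and the percentiles of the 2 arrays were averaged. The remaining 2 arrays came from ein3-1eil1-1 double mutant seedlings and were not used here. The seedlings were of the background that the series title writes as Col-o and carried no named mutation or transgene. Their seeds lay on MS medium for 3 days in the cold, received 4 h of light to start germination and were then kept at 22 °C without light for 4 days. Whole seedlings were taken, total RNA was extracted with TRIZOL, and 6 ug of it went into biotin labelling for Affymetrix ATH1 arrays. The second array is titled a biological repeat, but nothing else in the labels says whether the plants were grown apart, so the differences between the arrays may be partly technical. The names replicate 1 and replicate 2 follow the order of deposition, and 2 arrays limit the precision of every value.

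A seedling that germinates below the soil surface follows a programme called etiolation. The hypocotyl elongates, the cotyledons stay closed under an apical hook, and the growth is paid for by oil and protein laid down in the seed. Plastids become etioplasts, which hold protochlorophyllide and its reductase and turn green within hours once light arrives. Ethylene, acting through the transcription factor EIN3, takes part in shaping the hook.

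The signal ran over several orders of magnitude, as the plot of signal against position shows. The median probe set read 49.2 in replicate 1 and 52.1 in replicate 2, the 90th percentile lay at 468 and 416, and the maximum reached 19937 and 21800.2. The lowest values were 0 and 0.1. A small number of probe sets carried much of the signal: the brightest 100 held 15.5% of the summed signal in replicate 1 and 16.6% in replicate 2, and the brightest 1000 held 51.4% and 51.6%. The signal of a probe set also depends on the sequence of its probes, so the ranks order signals and not numbers of transcripts. The table used here holds no detection calls, so a dim signal cannot be told from background. In whole seedlings, a transcript present in few cells and one present at little RNA per cell cannot be told apart.

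**Figure D1:**
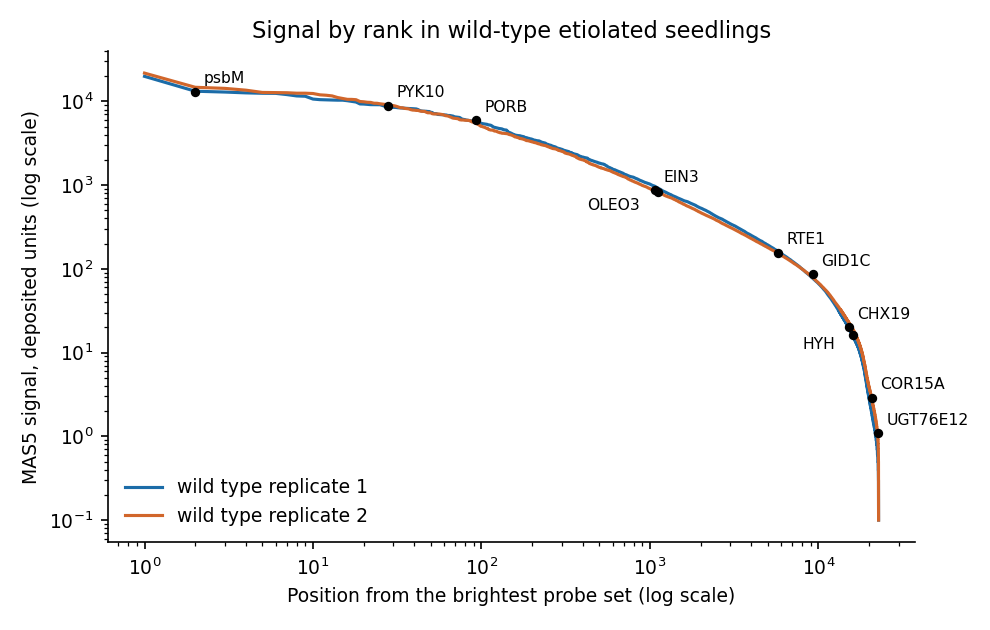
MAS5 signal in deposited units (log scale) of the 22746 probe sets, each array sorted from its brightest probe set (log scale), with 1 line per array and black points for the mean signal of selected genes at their averaged position. The lines of the 2 arrays nearly coincide, and the named genes run from psbM at position 2 to UGT76E12 at position 22505.

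Gene names were available for part of the array. A single gene was named for 13513 probe sets, which gave 13350 different genes, 1552 of them with a symbol other than the locus number. Naming was thinner among bright probe sets: of the brightest 100, 29 named a single gene. The median percentile was 43.7 for probe sets naming 1 gene and 58.3 for the others. A gene that is missing from the account below was therefore not necessarily dim. Every value in what follows is a MAS5 signal, replicate 1 first and replicate 2 second, unless it is called a percentile or a log2 difference.

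The 40 brightest named genes were led by the plastid genome. Plastid-encoded genes made up 16 of the 40, although the array measured 69 of them among 13350 named genes. Only 29 of the brightest 100 probe sets named a single gene, and the 40 genes reach down to position 130. The plastid share among all bright probe sets can therefore be lower than among the named ones. The brightest was psbM, which encodes a small subunit of photosystem II, at 13246 and 12808 and position 2 among all probe sets. The ATP synthase genes atpB (11635 and 14762), atpE (9155 and 11639) and atpA (7695 and 9776.5) stood at positions 4, 15 and 29. The cytochrome b6f gene petB read 12483.5 and 10836, and ndhI, a subunit of the plastid NADH dehydrogenase-like complex, read 10395 and 9903. The photosystem I genes psaJ (8256 and 7134) and psaB (7139 and 6957), the ribosomal protein genes rpl33 (5440.5 and 6372) and rps4 (5325 and 5942) and the protease subunit gene clpP (3961 and 6769) were also in this set.

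The other 24 of the 40 were nuclear, and 12 of these are named here by a locus number alone. Their signals ran from 5119 to 9334.5 in replicate 1 and from 4024 to 11853.5 in replicate 2, with AT1G09310 the brightest of the 12 at 8497 and 11853.5. Among the nuclear genes with a symbol other than the locus number, PYK10 stood first at 8002.5 and 9737 (position 28). It encodes a beta-glucosidase stored in the ER bodies of seedling and root cells. Light-harvesting and photosystem genes followed, with LHCB4.1 at 5631 and 7619, LHCB4.2 at 6712.5 and 6243 and PSAE-1 at 5519 and 6875. The list also held PRXR1, a peroxidase gene (7646 and 5298), GAPC2, encoding the cytosolic glyceraldehyde-3-phosphate dehydrogenase of glycolysis (6554 and 4941), and SAMDC, encoding an enzyme of polyamine synthesis (5394 and 4996). TUA6, an alpha-tubulin gene, read 4917 and 4215, and APA1, an aspartic protease gene, closed the list at 5206 and 3770.0 (position 130). In the plot of the brightest genes, the 2 arrays differed by a median of 1.27-fold over the 40 genes.

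**Figure D2:**
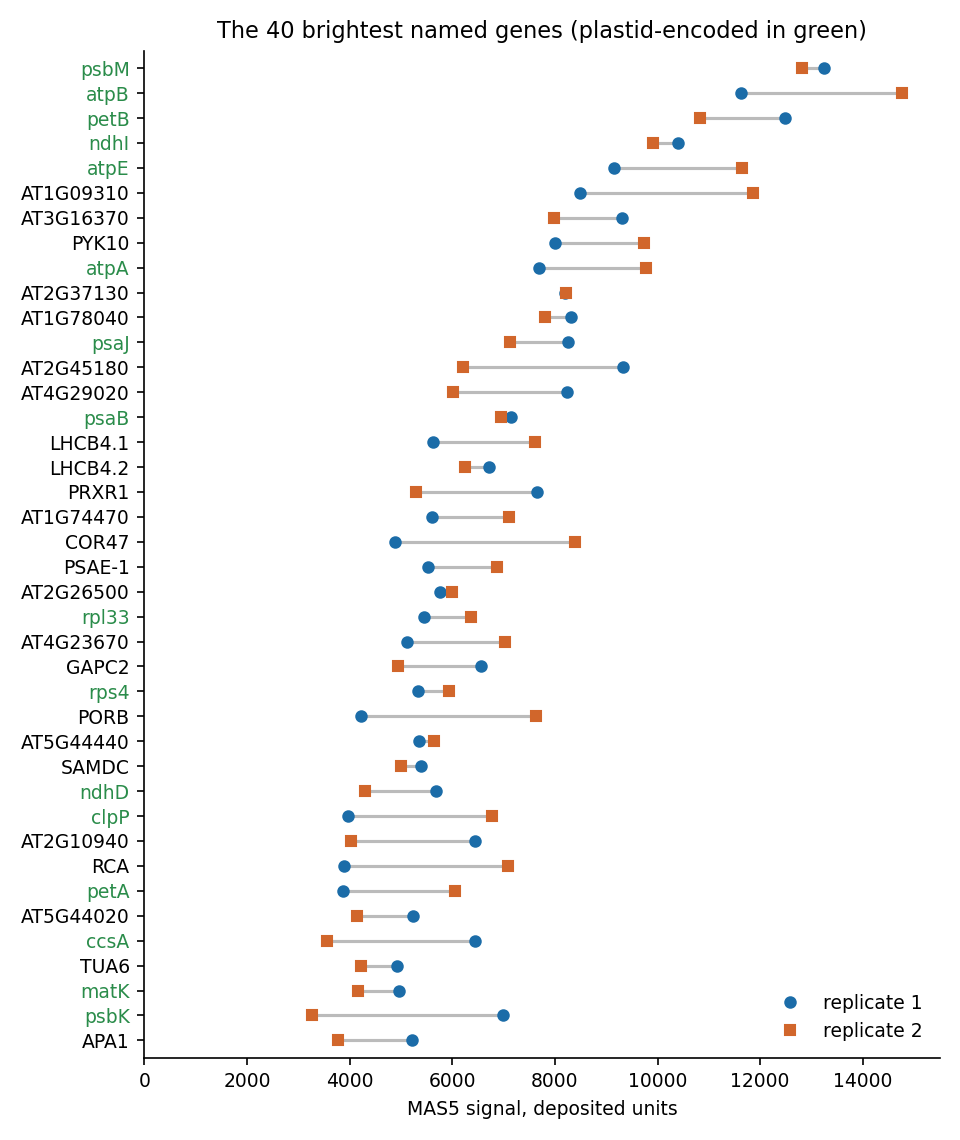
MAS5 signal in deposited units (linear scale from 0) of the 40 named genes with the highest averaged rank, replicate 1 as circles and replicate 2 as squares joined by a grey line, with plastid-encoded genes in green. The widest relative gap is that of psbK, at 6981 and 3263.

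A difference of 2-fold between the arrays was common over the array as a whole and less so among bright probe sets. Differences were taken as log2 of signal plus 3, replicate 2 minus replicate 1, after setting the median difference to 0, and 18.3% of all probe sets lay past 2-fold. Among probe sets above the 90th percentile, 5.81% did. Of the 40 brightest genes, 1 did, psbK, which encodes a small photosystem II subunit. That count is too small to set apart from the share above the 90th percentile. The nuclear genes of the 40 with the widest gaps were RCA, encoding Rubisco activase (3896 and 7095), PORB, encoding protochlorophyllide oxidoreductase (4219.9 and 7629), and COR47, encoding a dehydrin (4885 and 8401), all higher in replicate 2. Differences between the arrays depended on the signal, so each is to be read beside the shares by band of signal given below.

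Over all 69 plastid-encoded genes the median percentile was 97.0. Above the 90th percentile lay 52 of them, above the 99th 21, and below the 40th 2. By comparison, 6.84% of all named genes stood above the 90th percentile. The medians of the 5 nuclear chromosomes lay between 37.0 and 47.9. Probe sets naming 1 gene had a lower median percentile than the others, 43.7 against 58.3, so these comparators lie low. The array carried a named probe set for 69 of the 78 protein-coding plastid genes of the RefSeq annotation. Together these 69 probe sets held 3.68% of the summed signal in replicate 1 and 4.40% in replicate 2. Plastid messages are made as long precursors that are cut and trimmed, so neighbouring genes often share a transcript.

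The plastid genes were grouped by the complexes they build. The ATP synthase genes had the highest median percentile, 99.1 over 6 genes, with atpI, encoding a membrane subunit, apart from the rest at 102 and 156. Photosystem I followed at 98.8 over 5 genes, from psaJ down to psaC (1004 and 1551), which encodes the iron-sulphur subunit. Its core subunit gene psaA gave 3701 and 2225. Photosystem II had a median of 98.1 over 15 genes, and its dimmest member was psbN (148 and 196). The genes of the plastid ribosome (15 genes, median 96.6) and the NADH dehydrogenase-like complex (10 genes, 94.1) came next. Below them were the plastid RNA polymerase (4 genes, 91.8) and the cytochrome b6f complex (6 genes, 86.4).

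Within complexes the members spread widely. The cytochrome b6f list held petB at position 10 and petA, encoding cytochrome f, at 3869 and 6051, but petD (41.6 and 79.2) and petN (39.2 and 74.9) lay near the array median. In the RNA polymerase list rpoC1 read 1222 and 1550, and rpoB read 50.4 and 124.5. The 2 plastid genes at the bottom were rps14, a ribosomal protein gene, at 20.1 and 7, and ndhF at 4 and 16. The large subunit of Rubisco, rbcL, read 709 and 1399 (percentile 95.5).

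The 2 arrays differed past 2-fold in a larger share of plastid genes than of other bright probe sets, which is a count over these arrays with no test. Of the 69 genes, 16 lay past 2-fold (23.2%, against 18.3% of all probe sets), 13 of them higher in replicate 2 (18.8%, against 10.1%) and 3 higher in replicate 1 (against 8.26%). Above the 90th percentile the shares were 17.3% of 52 plastid genes and 5.53% of 2152 other probe sets. The median log2 difference was 0.32, and 46 of the 69 genes were higher in replicate 2. The largest gap was in rpl36, at 152 and 2377, a log2 difference of 3.91. It was followed by rpl22 (437 and 4430, log2 difference 3.30), psbA, the gene of the photosystem II reaction centre protein D1 (487 and 2671, 2.42), rps3 (761 and 4074, 2.38), rpoA (642 and 3091, 2.23) and rpl14 (165 and 722, 2.07). All 6 were higher in replicate 2.

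Of these 6 genes, 5 lie in one stretch of the plastid map. In RefSeq gene order, the stretch from rpoA to rps19 holds 9 genes, 7 of which were measured. All 7 were higher in replicate 2, and 5 were past 2-fold. This stretch was picked after its values were seen, and genes of one transcript are not independent of each other. The other 8 plastid genes past 2-fold and higher in replicate 2 lay elsewhere, among them psbB (868 and 2988), encoding an inner antenna protein of photosystem II, psbT (529 and 1191) and atpF (1577 and 3315.5). The 3 that were higher in replicate 1 were psbK, petL (1474 and 736) and rps14.

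Control probes differed between the arrays in the same comparison. The probe set for 25S ribosomal RNA read 1117 in replicate 1 and 6723.5 in replicate 2, a 6.02-fold difference. The 27 probe sets for Bacillus transcripts, which serve as poly-A controls, had a median log2 difference of -1.71, and 24 of them were higher in replicate 1. The 18 hybridisation control probe sets had a median log2 difference of 0.75, and all 18 were higher in replicate 2. The part of these differences in the plastid values was not tested.

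**Figure D3:**
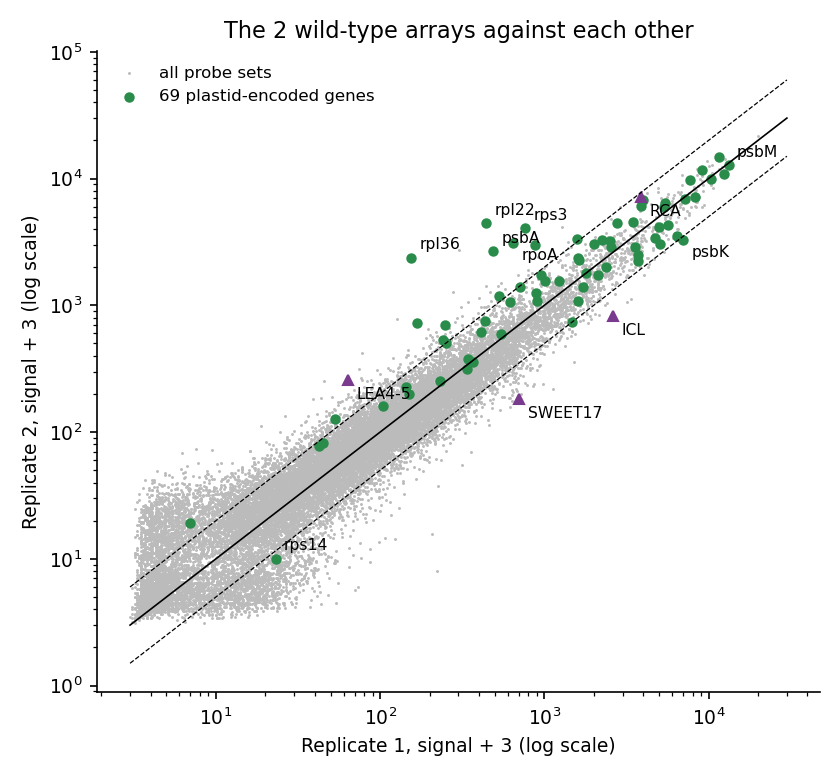
Signal plus 3 in replicate 1 (x axis) and replicate 2 (y axis), both on log scales, with a grey point per probe set, green circles for the 69 plastid-encoded genes and purple triangles for 4 nuclear genes; the solid line marks equal signals and the dashed lines 2-fold differences. The green points rpl36, rpl22, psbA, rps3 and rpoA lie far above the upper dashed line, while most bright points stay between the dashed lines.

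Mitochondrial genes lay lower in the profile. The 16 genes that the platform annotation names as mitochondrial, which were not matched to RefSeq, had a median percentile of 43.7, or 36.5 when each gene was placed by the median of its probe sets. Parts of the mitochondrial genome are also copied in the nuclear genome, so these probe sets may read either. The brightest were ccb382, a cytochrome c maturation gene (203 and 247), nad4, of respiratory complex I (223.5 and 214), and cox1, of cytochrome c oxidase (153 and 134.5). The dimmest was ccb203, at 9.7 and 7.

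Nuclear genes for photosynthesis lay as high in the profile as the plastid ones, in seedlings that had not been in light since germination was started. The 11 measured genes had a median percentile of 99.1, and 9 lay above the 90th. PSBY, encoding a small photosystem II protein, read 3629.6 and 3036, and SBPASE, the sedoheptulose-bisphosphatase of the Calvin cycle, read 987.5 and 1971. The lowest 2 were PGRL1B, of cyclic electron flow, at 119.9 and 169.6, and LHCB4.3, at 184 and 90.8. LHCB4.1, LHCB4.2 and LHCB4.3 encode forms of the same minor antenna protein, CP29. Most members of the large LHCB1 and RBCS families were not among the named genes.

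Genes of chlorophyll synthesis were spread from the top to the floor, and the 3 brightest act after magnesium insertion. The 10 measured genes had a median percentile of 90.6. AT1G74470, annotated as geranylgeranyl reductase, which makes the phytol chain of chlorophyll, read 5610.3 and 7097.5. PORB, the light-dependent enzyme that converts protochlorophyllide and that etioplasts hold in quantity, read 4219.9 and 7629. CHLM, the methyltransferase that acts after magnesium insertion, read 1141 and 1495. Next came HEMB1, of an early step, which read 1070.1 and 886 and was picked after its values were seen. HEME1, a uroporphyrinogen decarboxylase gene of the middle of the pathway, read 396 and 414.5, and CHLI2, for a subunit of magnesium chelatase, read 194 and 297. The measured glutamyl-tRNA reductase genes of the first committed step lay lowest, with HEMA2 at 109 and 99.8 and HEMA3 at 3.9 and 3.1. No other glutamyl-tRNA reductase gene was among the 10, so that step is described only in part. All 3 of the brightest genes were higher in replicate 2, and none of the 10 was past 2-fold. Above the 50th percentile, where 9 of the 10 lay, 7.06% of all probe sets were past 2-fold.

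The ethylene genes were well above the middle of the array. EIN3 read 766 and 992 (percentile 95.1), a log2 difference of 0.34 between the arrays. ARL, a gene related to the organ size regulator ARGOS, read 634 and 969 (94.3). RTE1, which acts with the receptor ETR1, read 174 and 139 (74.3), and its homologue RTH read 239.6 and 226 (81.9). The 4 genes had a median percentile of 88.1, and none was past 2-fold between the arrays. All 4 lay above the 50th percentile, where 7.06% of all probe sets were past 2-fold. Few genes of the pathway had a named probe set, so the receptors and kinases are not described here.

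The 3 light signalling genes with a named probe set lay between the 28.5th and 59.5th percentile. FHL, which helps carry phytochrome A into the nucleus, read 64.2 and 95.3, above the array median. CSN5B, a subunit of the COP9 signalosome that keeps dark-grown seedlings etiolated, read 29.6 and 15.4, and HYH, a partner of the light-response factor HY5, read 14.1 and 18.7. The last 2 lay below the 40th percentile.

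Growth hormone genes covered a wide range. EXO, a brassinosteroid-responsive gene for a cell wall protein, was bright at 3701 and 3860.3 (percentile 99.3). The gibberellin receptor genes followed the order GID1A (329 and 219), GID1B (189 and 83.1) and GID1C (125 and 48.3) in each array. All were higher in replicate 1, with GID1B and GID1C past 2-fold. Of all probe sets, 7.26% were past 2-fold between the 60th and 70th percentile, where GID1B lay. Between the 50th and 60th, where GID1C lay, 7.86% were. The 16 auxin genes had a median percentile of 40.7, and none stood above the 90th. The highest were IAGLU, which joins auxin to glucose (273 and 276), GH3.17, which joins it to an amino acid (329.5 and 194), and the repressor gene IAA18 (189 and 269). At the low end were the biosynthesis genes YUC4 (11.5 and 4.8) and YUC11 (8.6 and 1.6). The cytokinin response regulators were near the floor: all 5 measured members lay below the 40th percentile, and the brightest, RR16, read 23 and 25.5.

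Genes of the cytoskeleton and of wall expansion included some of the brightest families and some near the floor. The 7 tubulin genes had a median percentile of 96.8. After TUA6 came TUB6 (2883 and 1751), TUB1 (1618 and 1561), TUB5 (1177 and 1435) and TUB9 (1264 and 1002), and the lowest was TUA1, known for its expression in pollen, at 273 and 209. The actin gene ACT11 read 196 and 112, and ACT12 read 9.6 and 10.6. Among the 14 expansin genes, whose products loosen walls, the median was 58.5. EXPA9 (1792 and 1100.5), EXPA8 (1929.8 and 1017) and EXPA4 (971 and 653) stood apart, all higher in replicate 1, while EXPA24 (2.9 and 3) and EXPA21 (2 and 3.7) were near the floor.

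Other wall families also ran from bright to dim members. The 9 XTH genes, whose enzymes cut and rejoin xyloglucan, had a median of 73.5, with 6 above the 50th percentile and 3 below the 40th. XTH19 read 1093 and 1322, and XTH21 (1.2 and 1.9) and XTH26 (1.3 and 1.7) were lowest. The 5 CSLC genes of xyloglucan synthesis had a median of 74.2, led by CSLC04 (925 and 902). COB, which orients cellulose deposition in elongating cells, read 1205.5 and 1508. The 15 GH9 endoglucanase genes had a median of 42.2 and ran from GH9C2 (3217 and 1663) to GH9B11 (0.8 and 2.3). The 11 RALF-like peptide genes, with a median of 62.0, ran from RALFL32 (1488 and 1266) to RALFL27 (0.5 and 1.6). The 22 TBL genes, of wall polysaccharide acetylation, had a median of 53.6 and ran from TBL25 (988 and 599) to TBL43 (2.3 and 1.6).

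Genes of seed reserves and late embryogenesis had a median percentile of 65.2 over 6 members, and 3 genes of oil breakdown one of 91.2. OLEO3, encoding an oil body protein, read 890.2 and 789.8 (percentile 94.9), and the late embryogenesis gene AT2G44060 read 1021 and 1256. ICL, encoding isocitrate lyase of the glyoxylate cycle that turns oil into sugar, read 2615 and 818, a log2 difference of -1.71. AIM1, of peroxisomal fatty acid oxidation, read 525 and 475, and SDP1, the lipase that opens oil breakdown, read 261 and 187. The late embryogenesis genes LEA4-5 (60.7 and 255) and LEA18 (11.7 and 28) were dimmer and past 2-fold, higher in replicate 2. AT2G46140 (98.4 and 75.2) and AtLEA4-1 (34.7 and 30.7) completed that list. The difference in ICL between the arrays ran opposite to that in LEA4-5 and LEA18. Of all probe sets, 5.81% were past 2-fold above the 90th percentile, where ICL lay. Between the 60th and 70th, where LEA4-5 lay, 7.26% were, and between the 30th and 40th, where LEA18 lay, 20.2% were.

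The ER body, a store of beta-glucosidase that acts against herbivores when cells are crushed, had several bright genes. Besides PYK10, the ER body list held the lectin genes JAL33 (4703 and 3414) and JAL22 (2466.5 and 2221), NAI2, an ER body component (1025 and 2036), and NAI1, the factor that controls them (347 and 211). Dim members were BCAT4, which starts methionine-derived glucosinolate synthesis (21.8 and 10.7), and the lectin gene JAL23 (11.6 and 1.7). The median of the 7 genes was 96.9. The 21 beta-glucosidase genes, PYK10 included, had a median of 35.5 and ended at BGLU43 (1.4 and 3.5).

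Several housekeeping and metabolic families had medians in the upper part of the profile, with some members far below. The 8 aldehyde dehydrogenase genes had a median of 93.2 and ran from ALDH11A3 (1331 and 2093) to ALDH22A1 (164.5 and 77.2). The 12 ubiquitin-conjugating enzyme genes had a median of 87.3, with UBC28 at 3409.7 and 2991 and UBC31 near the floor at 2.6 and 0.9. Among 8 autophagy genes the median was 85.4, and none lay below the 40th percentile. They ran from ATG8F (1409 and 1631) to ATG8G (75.6 and 96). TPI, for triose phosphate isomerase, read 3643 and 3402, and PGM, for phosphoglucomutase, read 26.5 and 20.9. The 4 genes of glycolysis had a median of 88.1. The 6 LSM genes of mRNA decapping and splicing had a median of 70.1, the 10 VPS genes of vesicle sorting 68.4 and the 6 RNA polymerase II subunit genes 65.3.

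At the other end, several families were mostly dim. All 7 CHX cation exchanger genes, a family known for pollen expression, lay below the 40th percentile, the brightest being CHX19 (20.1 and 19.9). The glutamate receptor-like genes had a median of 30.2 and the cytochrome P450 genes of 30.8, over 8 and 22 members. Most of the measured P450 genes belong to the CYP71B subfamily, so their median does not describe the whole P450 family. CYP71B6 led the P450 genes at 215 and 262, and CYP71B21 read 0.4 and 0.9.

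The LCR and COR genes held both very bright and very dim members. Of 8 LCR genes, which encode small cysteine-rich peptides related to defensins, LCR69 read 3394.5 and 3507 and LCR68 read 2546.5 and 2017.5. The other 6 lay below the 40th percentile, down to LCR24 (6.8 and 1.4). Cold-regulated genes did likewise: COR47 was among the 40 brightest, and COR15A read 2.9 in each array. The SWEET sugar transporter genes were graded: the 14 had a median of 37.0, with SWEET11 (2486 and 1926) above the 90th percentile, 5 above the 50th and 8 below the 40th. The 47 UDP-glycosyltransferase genes had a median of 38.2, with 17 above the 50th percentile, and UGT88A1 (973 and 838) was the member above the 90th. Of all named genes, 46.6% lay below the 40th percentile, so the SWEET count is near that share.

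**Figure D4:**
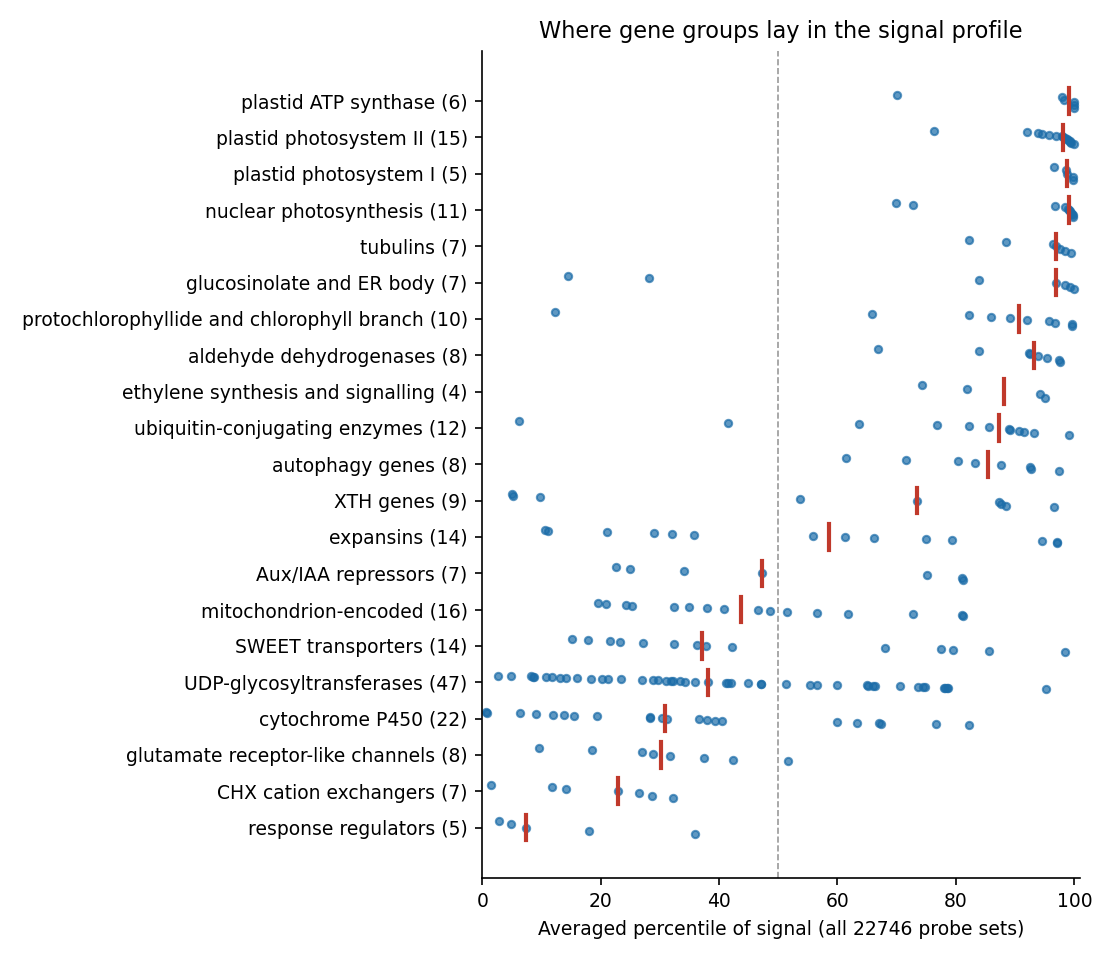
Averaged percentile of signal (x axis, 0 dimmest to 100 brightest, among 22746 probe sets) of each measured member of 21 gene lists, with a blue point per gene, a red bar at the list median, the number of measured genes in parentheses and a dashed line at the 50th percentile. The photosynthesis lists, plastid and nuclear, crowd against the right edge, and the CHX genes and response regulators crowd to the left.

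In all, 64 lists had at least 3 measured members. The median lay above the 90th percentile in 15 of them and below the 40th in 16, beside a median of 43.9 over all named genes. The metallothionein gene MT1C, the only measured member of its list, read 908 and 769. A list of 4 H2B histone genes, HTB2 among them, had a median of 80.3, with HTB4 brightest at 1454 and 565. The 5 genes of the other histone list had a median of 75.4. They ran from HON4, of a linker histone (318 and 516), through HIS1-3 (128 and 324), HTB2 (116 and 236) and the centromeric histone gene HTR12 (32.7 and 28) to MGH3, a histone gene of male gametes (1.3 and 5.7).

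Markers of organs and stages were read as a check on the tissue. Of 85 markers listed, 9 had a named probe set, and 8 of these are given here. PYK10, of root, OLEO3, of seed reserves, and RCA, listed as a marker of light-grown leaf, were bright, all above the 90th percentile. The root hair genes EXPA7 (3.9 and 16.9) and EXPA18 (27.6 and 13.9), the stomatal lineage genes SPCH (36 and 23.9) and MUTE (1.6 and 1.8) and the shoot meristem gene CLV3 (1.6 and 2.1) all lay below the 40th percentile. With most markers lacking a named probe set, the share of any organ in the samples could not be read from them.

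The gap in percentile between the 2 arrays was smallest at the top of the profile, where a percentile has little room to move. Its median was 0.98 points above the 90th percentile and 5.78 between the 50th and 60th. The signals themselves were about equally close in these bands, with median differences of 1.28-fold and 1.29-fold. The median gap in percentile also varied among dim probe sets. It was 10.1 points between the 10th and 20th percentile and 4.13 below the 10th. Over all 22746 probe sets Spearman's correlation was 0.941 and Pearson's, on log2 values, 0.940; these are correlations across probe sets, which are not independent replicates. Of the 100 brightest probe sets of each array, 84 were shared, and of the 1000 brightest, 857. A probe set moved by a median of 5.25 percentile points between the arrays, with a 95th percentile of 21.1 points. The median difference was 1.37-fold.

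The plot by band of signal shows where these differences lay. Between the 10th and 20th percentile, where signals centred on 3.9 and 5.2, 51.6% of probe sets were past 2-fold. The share was 20.2% between the 30th and 40th percentile and 5.81% above the 90th. In the upper part of the profile, above the 50th percentile, 804 of 11385 probe sets were past 2-fold (7.06%). Below the 10th percentile the added constant of 3 exceeds most signals and holds differences down. The direction drifted too: the median log2 difference was 0.22 between the 10th and 20th percentile and -0.20 above the 90th, so dim probe sets read slightly higher in replicate 2 and bright ones in replicate 1.

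**Figure D5:**
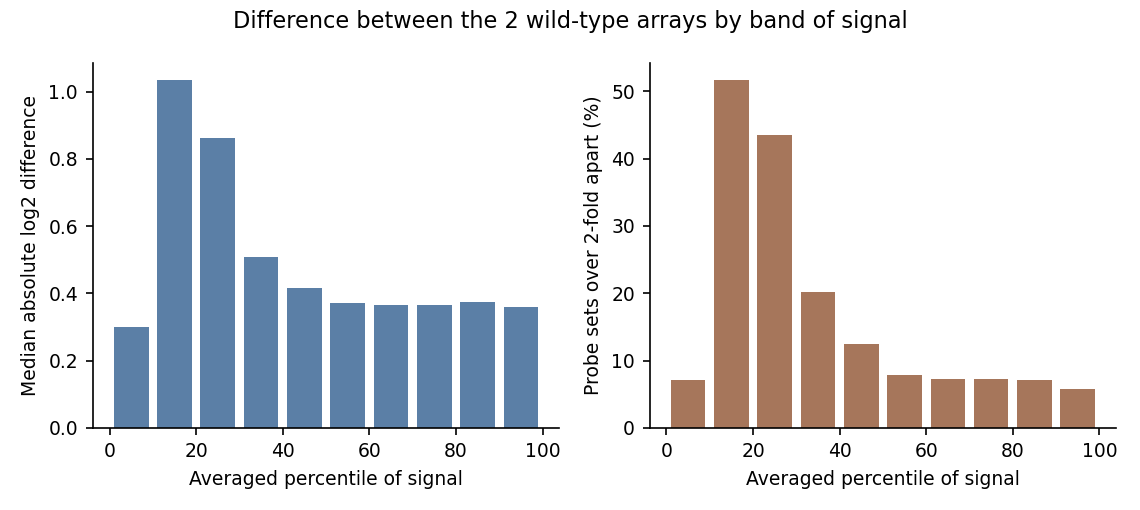
Median absolute log2 difference between the 2 arrays (left) and percentage of probe sets more than 2-fold apart (right), in 10 bands of averaged percentile from dimmest to brightest. The bars peak between the 10th and 20th percentile, at 1.03 and 51.6%, and above the 50th the right-hand bars stay between 5.81% and 7.86%.

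Among the genes above the 50th percentile that differed most between the arrays, plastid genes were found only on the side of replicate 2. Of the 10 with the largest differences toward replicate 2, 6 were plastid-encoded. The other four were AT5G40450 (123 and 770.4), AT3G02480 (74.4 and 414), AT5G07820 (23.3 and 131) and AT3G45850 (40.9 and 182). The 10 with the largest differences toward replicate 1 were all nuclear. They included NANA, encoding an aspartic protease of the chloroplast (311 and 51.8), SWEET17, encoding a fructose transporter of the vacuole (700.2 and 178), and TINY, written tny, encoding a factor of the AP2/ERF family (453 and 121). AT5G04120 led them, at 222 and 34.6, a log2 difference of -2.61.

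At the opposite extreme were genes whose log2 difference was nearest to 0 after the median difference between the arrays had been set to 0. Above the 90th percentile the 5 nearest, whose deposited signals differed by at most 1.03-fold, were AT5G47610 (574 and 587), ALDH2C4, an aldehyde dehydrogenase of phenylpropanoid metabolism (691 and 709.9), AT2G41840 (2785.5 and 2864), AT5G24165 (689.6 and 709) and SCN1, which acts in root hair growth (674 and 694).

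Probe sets for the same gene did not always give the same level. Among 152 genes with several probe sets, the brightest and dimmest lay a median of 12.9 percentile points apart. The gap was under 10 points in 55 genes and over 50 points in 10. For SDH2-1, which encodes the iron-sulphur subunit of succinate dehydrogenase, one probe set read 469 and 557 and the other read 6.8 and 12.1. DER1 (189.5 and 125 against 7 and 1.2), AT2G32560 and AT1G62760 split in the same way. In these 4 genes the gap between probe sets exceeded the gap between arrays, and each gene is placed above by its brightest probe set.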

How the data were processed

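Whole etiolated seedlings were measured on single-colour Affymetrix arrays. For each array the authors deposited linear signal intensities by probe set, and the submitters' processing notes name MAS5 as the tool. The MAS5 version, the scaling target and the detection calls are not given in the sources used here. Both wild-type arrays had columns matched by accession, and 0 columns were left unmatched.

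From these intensities, 64 control probe sets were left out and the rest ranked within each array. Differences were computed as log2 of signal plus 3 (the 10th percentile of the values, rounded), centred on their median. That scale understates the change of dim probe sets. Genes were named from the platform annotation, updated through RefSeq locus tags (assembly TAIR10.1): 13513 probe sets named 1 gene, of which 13436 matched RefSeq, 503 named several and 8730 are unnamed here. Probe sets with several genes gave no names. Where a gene had more than 1 probe set, the brightest placed it.

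The text names the 40 brightest genes or some of them, list members (all in lists of up to 8 genes, otherwise the 3 highest, the one nearest the median and the 3 lowest), the 10 genes differing most each way above the 50th percentile, the 5 with the closest signals above the 90th, the 5 with the most discrepant probe sets, and EIN3. It also gives plastid genes chosen after their values were seen. The samples, rule and lists were chosen with earlier results of these data known: 32 lists were written before the annotation was read, and 43 families were added afterwards. Of these 75 lists, 6 had no named member. Some genes that this rule would name are not reported here.

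With 2 arrays of 1 group no test was made, and all values are descriptions. The computation was tested on simulated data. Alternatives were other scalings, pseudocounts and filters, ranks of each array alone, other probe-set choices and another background. Python 3.11.15, numpy 2.4.6, pandas 2.3.3, scipy 1.17.1 and matplotlib 3.10.9 were used.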

Additional observations from a re-analysis of the deposited data

How the results depend on the processing

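The measures of agreement between the arrays depended on how dim probe sets were treated. With probe sets above the 40th percentile alone, Spearman's correlation was 0.917, the median absolute log2 difference 0.38 and the share past 2-fold 7.91%, against 0.941, 0.45 and 18.3%. Without a pseudocount the last 2 were 0.53 and 25.9%, with a pseudocount of 16 they were 0.32 and 5.61%, and after quantile normalisation the median difference was 0.43. The count of plastid genes past 2-fold stayed between 14 and 18 under the scalings and pseudocounts tried, and those higher in replicate 2 between 12 and 16. Ranking by a single array kept 35 or 36 of the 40 brightest genes. The brightest 100 probe sets held 15.5% to 16.6% of the signal in single arrays, and the median percentile of a list moved by a median of 1.90 to 2.04 points there, at most 9.61 (chaperones), and by a median of 4.86 when ranks were taken among probe sets naming 1 gene. Lists with a median above the 90th percentile numbered 13 to 18, and lists below the 40th 11 to 18, under all rankings tried. No paired analysis was possible because the 2 arrays belong to 1 group, and the labels number no replicates. Planned summaries of promoter and protein features along the profile were not run, since no sequences were used here. Without detection calls, no statement on absence can be made for the dim genes.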
